A study of Mus musculus with 10 samples.

Results

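The BCL2 family of survival and death proteins was described here through 10 genes of acute myeloid leukaemia (AML) cells. The genes were taken by symbol from a table of 38215 genes, and all 10 were found and had enough reads to be tested. They are the survival genes Bcl2, Bcl2l1, Mcl1, Bcl2a1b and Bcl2a1d, the pore former Bax, and the BH3-only genes Bcl2l11, Bbc3, Pmaip1 and Bid.

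BCL2 family proteins meet at the outer membrane of the mitochondrion. BAX and its relative BAK can open that membrane and release cytochrome c, which starts the caspases; survival proteins such as BCL2, BCL-XL (Bcl2l1), MCL1 and A1 (Bcl2a1) hold them in check. BH3-only proteins such as BIM (Bcl2l11), PUMA (Bbc3), NOXA (Pmaip1) and BID bind the survival proteins or act on the pore formers directly, and in myeloid leukaemia the pathway is known as the target of BH3-mimetic drugs.

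The series measured poly(A) RNA of GFP+ splenocytes from 10 leukaemic mice by sequencing. In every mouse the leukaemia had been made in lineage depleted bone marrow by a retrovirus, MSCV-IRES-GFP, that expresses AML1-ETO and NrasG12D, and it had first grown in a Rag2-/-γc-/- primary recipient. GFP+ cells of the spleen were then passed to secondary recipients, either C57BL/6J mice, which are immunocompetent (5 libraries, numbered 1, 3, 4, 5 and 6), or Rag2-/-γc-/- mice, whose alleles leave them without T, B and NK lymphocytes (5 libraries, numbered 7 to 11). The comparison therefore asks how leukaemia cells differ after growth in a host with or without lymphocytes. The oncogenes were driven by a viral vector rather than by their own loci, no age was given in the labels, and the labels do not say how many primary leukaemias were used or which recipients shared one. A library stands for 1 recipient, and the spread behind each p-value is that between recipients, which may share a primary leukaemia.

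Libraries held 28157745 to 62461126 expected counts. In a principal component analysis of all tested genes, the first component (46.4% of the variance) placed Rag2-/-γc-/- libraries 7, 8 and 9 at 49.6 to 61.6, libraries 10 and 11 at -4.9 and 8.7, and the C57BL/6J libraries at -57.5 to -20.2, so the Rag2-/-γc-/- group held subsets of 3 and 2 libraries that stood apart. The fold changes of single genes named below are therefore also given without libraries 10 and 11 and without libraries 7, 8 and 9 where this ended or made a call, turned the direction or moved a called value by over 1.5 times. The common leukocyte antigen Ptprc was present in every library (410 to 743 CPM, which are read counts scaled to a common library size with TMM factors). Its log2 fold change, C57BL/6J minus Rag2-/-γc-/-, was 0.36 (edgeR adjusted p = 0.16), and 0.56 (adjusted p = 0.0138) without libraries 10 and 11. A list of 8 dendritic cell genes (8 tested, 1 higher in C57BL/6J) summed to 5317 to 6452 CPM in C57BL/6J and 3508 to 5100 CPM in Rag2-/-γc-/- libraries, so every C57BL/6J library lay above every Rag2-/-γc-/- library. Summed T cell markers (12 genes, 5 tested, 2 of them higher in C57BL/6J) reached 64.3 to 116 CPM in C57BL/6J and 20.7 to 46.9 CPM in Rag2-/-γc-/- libraries, in which Cd2, Trac and Cd8b1 were at 0; most of the sum in both groups came from Cd8a, with a mean of 49.9 CPM. NK cell markers (7 genes, 3 tested, 1 higher) summed to 28.3 to 42.8 against 10.8 to 28.9 CPM. Most of that sum came from Klrd1 (means of 18.3 against 12.9 CPM) and Klrk1 (14.1 against 5.05 CPM), and Klrb1c went the other way (0.809 against 2.07 CPM). Ncr1 and Gzma, at means of 0.0824 and 0.504 CPM in C57BL/6J, were at 0 in all Rag2-/-γc-/- libraries. B and plasma cell markers (8 genes, 4 tested, 1 higher) summed to 3.85 to 133 against 1.99 to 2.91 CPM, the highest in C57BL/6J library 1. Erythroid markers (8 genes, 6 tested, 0 called) summed to 14.9 to 146 CPM in C57BL/6J and 74.3 to 242 CPM in Rag2-/-γc-/- libraries, and macrophage markers (8 genes, all tested, 1 lower in C57BL/6J) to 23.8 to 216 and 112 to 383 CPM. Neutrophil markers (9 genes, 7 tested, 0 called) summed to 3.67 to 27.7 and 5.06 to 28.5 CPM, and platelet markers (5 genes, 3 tested, 1 higher) to 7.27 to 12.9 and 2.22 to 9.37 CPM. The direction of the platelet sum came from Itga2b (means of 7.53 and 2.13 CPM), and the means of Pf4, Gp1ba, Gp9 and Ppbp went the other way. Nras, present in the vector in its mutant form, was at 337 ± 33.6 CPM (SD, n = 5) in C57BL/6J and 641 ± 270 (SD, n = 5) in Rag2-/-γc-/- libraries, of which libraries 7, 8 and 9 were highest (-0.93, edgeR adjusted p = 0.0498, and -0.0895, adjusted p = 0.867, without those libraries). The Nras call was lost without any 1 of 8 libraries, all C57BL/6J libraries and Rag2-/-γc-/- libraries 7, 8 and 9 (adjusted p up to 0.12). It was also lost in limma-voom and with robust dispersion. In bulk RNA, fewer cells of a type and less RNA per cell cannot be told apart.

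Across the 10 members, Bbc3 was the gene that passed the test between recipients, and it was lower in C57BL/6J. Of 13966 genes tested with edgeR's quasi-likelihood test and Benjamini-Hochberg adjustment over all of them, 464 were higher and 624 lower in C57BL/6J at an adjusted p under 0.05, which is 7.79% called in either direction, 3.32% called higher and 4.47% called lower. Among the members 1 of 10 was called lower and 0 of 10 higher. At an unadjusted p under 0.05 the count was 4 of 10, namely Bbc3, Bcl2l1, Bcl2a1b and Bcl2l11, all with lower values in C57BL/6J. Among the tested genes of the lists outside the members it was 38 of 98, in either direction. The share of all tested genes at that cut was not computed, so the count of members is not read as a result. The median log2 fold change (C57BL/6J minus Rag2-/-γc-/-) of the members was -0.15, beside 0.00 for all tested genes, and 8 of 10 had a negative sign against 6919 of 13966 genes overall. The members' median was -0.33 without Rag2-/-γc-/- libraries 10 and 11 and -0.05 without libraries 7, 8 and 9, so it depended on the subset. Several members changed sign in the latter fit, as given below. The groups did not overlap for 1 of 10 members, again Bbc3, where 8.5% of all tested genes had no overlap (4.37% with C57BL/6J lower).

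**Figure D1:**
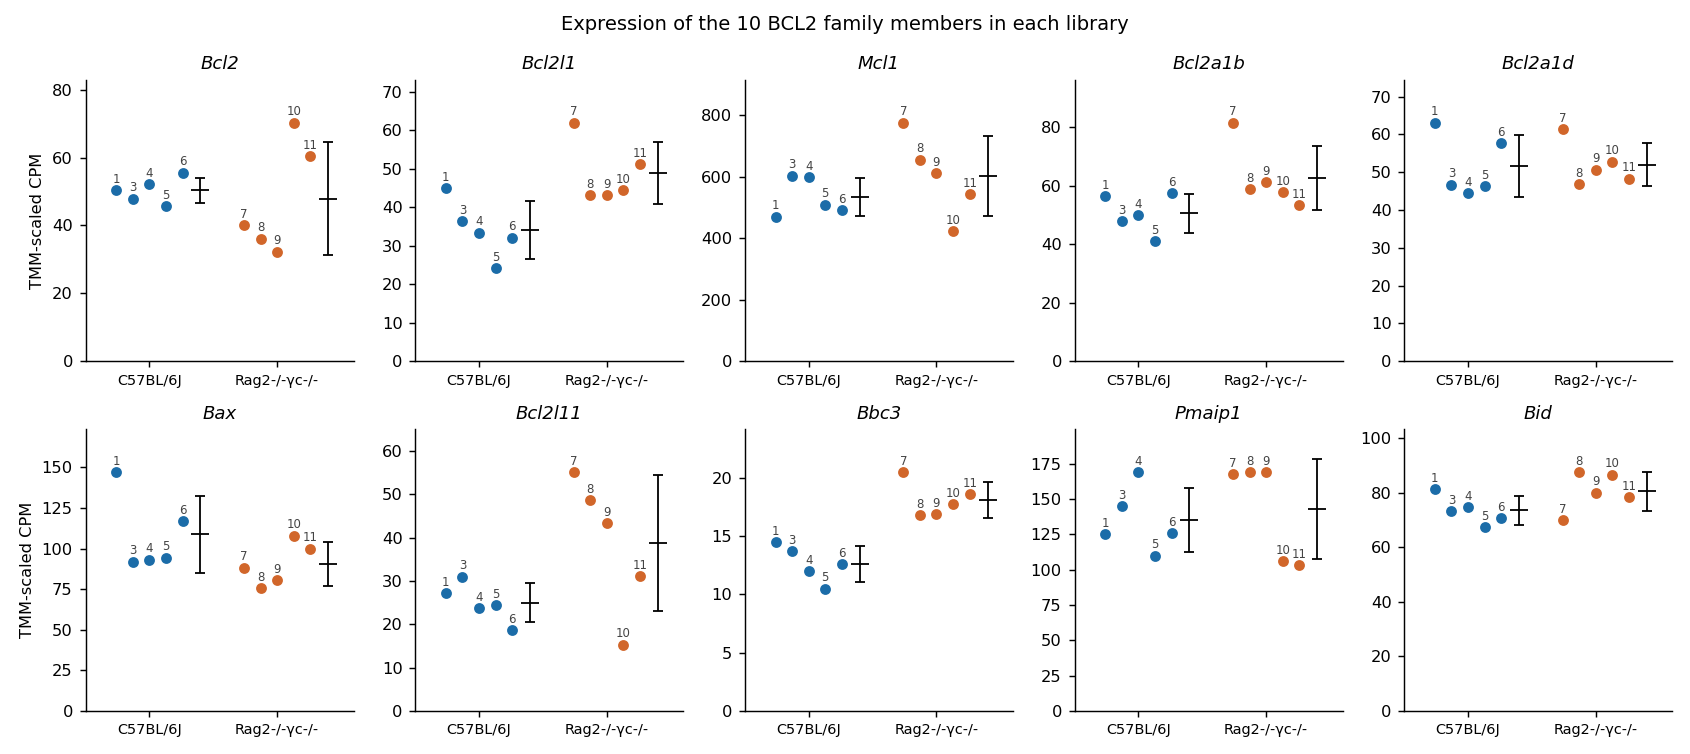
TMM-scaled CPM of the 10 members, with 1 point per library (numbered), C57BL/6J in blue and Rag2-/-γc-/- in orange, and the mean ± SD beside each group (n = 5). Bbc3 separates the groups (10.5 to 14.5 against 16.8 to 20.5 CPM), while for Bcl2 and Bcl2l11 the Rag2-/-γc-/- libraries spread to both sides of the C57BL/6J points.

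Bbc3 encodes PUMA, a BH3-only protein known as a target of p53 and of FOXO factors. It lies at chr7:16309616-16318205 on the plus strand of GRCm38. Its level was 14.5, 13.7, 12.0, 10.5 and 12.6 CPM in C57BL/6J libraries 1, 3, 4, 5 and 6, and 20.5, 16.8, 16.9, 17.8 and 18.6 CPM in Rag2-/-γc-/- libraries 7 to 11. Every Rag2-/-γc-/- library lay above every C57BL/6J library, and the 2 subsets of Rag2-/-γc-/- libraries were at like levels. The means were 12.7 ± 1.57 and 18.1 ± 1.51 CPM (SD, n = 5 each). This is a log2 difference of -0.52 ± 0.11 (SE, 95% interval -0.76 to -0.27, edgeR adjusted p = 0.0183), or 1.43-fold higher in Rag2-/-γc-/- recipients. Bbc3 kept its size when single libraries were left out (-0.57 to -0.46), with an adjusted p of 0.0502 without C57BL/6J library 6. It was -0.51 (adjusted p = 0.0118) without libraries 10 and 11 and -0.52 (adjusted p = 0.124) without libraries 7, 8 and 9. The marker sums moved with the groups as well. Mean sums were lower in Rag2-/-γc-/- libraries for T cell markers (34.9 against 87.3 CPM) and dendritic cell markers (4335 against 5773 CPM), without overlap. They were lower as well for NK cell markers, with the overlap given above. They were higher there for erythroid markers (164 against 51.7 CPM) and macrophage markers (216 against 124 CPM), with overlapping ranges. The T cell sum was mostly Cd8a (28.9 against 71.0 CPM), and Cd5 in that list went the other way (2.83 against 1.43 CPM), so the sum is not a measure of T cells alone. The part of these sums in the Bbc3 difference was not tested.

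Among the 3 genes whose log2 CPM followed that of Bbc3 most closely over the 10 libraries, by root mean square difference after centring and among 9989 genes with a mean of at least 5 CPM, were Dusp6 (0.09) and 2410006H16Rik (0.111). Dusp6, a phosphatase of ERK, was at 155 to 212 CPM in C57BL/6J and 221 to 290 CPM in Rag2-/-γc-/- libraries (-0.47 ± 0.10, edgeR adjusted p = 0.0192, 0.0548 at most with 1 library left out, and 0.147 without libraries 7, 8 and 9). The difference of 2410006H16Rik was -0.37 with an adjusted p of 0.0672. Since they were picked for their likeness to Bbc3, their direction adds no further support.

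Bbc3 and Bcl2l11 carry in a RefSeq promoter window (250 bases before to 50 after a transcript start, GRCm38.p6) the letters GTAAACA, the core of the site that FOXO factors bind. They are shown because these were the members scanned that had a window with the letters. The other windows of both genes held no match. Both genes encode BH3-only proteins known as FOXO targets. Bbc3 was called, and Bcl2l11 differed within the Rag2-/-γc-/- group. The 250 bases before each start are printed 5′ to 3′ on the plus strand, with the 7 letters or their reverse complement TGTTTAC in capitals.
Bbc3, chr7:16310011-16310260: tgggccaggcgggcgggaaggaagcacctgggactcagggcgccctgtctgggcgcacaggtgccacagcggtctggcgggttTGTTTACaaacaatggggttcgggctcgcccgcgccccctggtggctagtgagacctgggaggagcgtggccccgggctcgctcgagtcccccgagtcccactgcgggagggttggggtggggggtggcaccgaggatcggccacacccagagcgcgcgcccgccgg
Bcl2l11, chr2:128125788-128126037: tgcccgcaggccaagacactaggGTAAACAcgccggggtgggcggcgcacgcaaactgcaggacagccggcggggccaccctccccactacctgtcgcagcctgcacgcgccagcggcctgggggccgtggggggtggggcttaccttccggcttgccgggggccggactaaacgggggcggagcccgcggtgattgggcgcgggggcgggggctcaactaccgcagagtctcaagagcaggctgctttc
The Bbc3 stretch lies in introns of 2 annotated Bbc3 transcripts (GENCODE M21) ahead of an internal start, and the match is 167 to 161 bases before that start; the Bcl2l11 stretch lies outside annotated transcripts, with the match 227 to 221 bases before the start. Windows were at hand for 9 members (14 windows), and 2 of the 14 held GTAAACA on either strand, against 3.65% of 32851 promoter windows. The GC box GGGCGG was in 11 of the 14 windows (35.7% of all windows), the E-box CACGTG in 2 (Bax and Bbc3, 7.15% of all), and TATAAA in 0 (13.6% of all). Outside the members, Bmf, Bnip3 and Bcl2l14 were scanned as well, and none of their windows held GTAAACA on either strand. These matches describe letters and show no binding. Foxo3, the FOXO factor with the smallest adjusted p among those listed, was at 35.6 to 46.5 CPM in C57BL/6J and 43.4 to 53.7 CPM in Rag2-/-γc-/- libraries, a difference of -0.27 ± 0.10 (SE) that did not pass the edgeR test (adjusted p = 0.114).

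Bcl2l11 encodes BIM, a BH3-only protein that binds all survival members (chr2:128126038-128162547, plus strand). It was at 27.2, 31.0, 23.8, 24.5 and 18.6 CPM in the C57BL/6J libraries and at 55.1, 48.7, 43.3, 15.3 and 31.2 CPM in Rag2-/-γc-/- libraries 7 to 11. Libraries 7, 8 and 9 were above all C57BL/6J libraries, library 10 was the lowest of all 10, and library 11 was just above the highest C57BL/6J library. The difference of -0.63 ± 0.28 (SE, 95% interval -1.25 to -0.01) did not pass the edgeR test (adjusted p = 0.189). Without library 10 it was -0.83 (adjusted p = 0.0143), without libraries 10 and 11 it was -0.97 (adjusted p = 0.0014), and without libraries 7, 8 and 9 it was 0.11 (adjusted p = 0.93), the opposite sign.

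Pmaip1 encodes NOXA, a BH3-only protein that binds MCL1 and A1 in particular (chr18:66458604-66465550, plus strand). Its values were 125, 145, 169, 110 and 126 CPM in C57BL/6J and 168, 169, 169, 106 and 103 CPM in Rag2-/-γc-/- libraries. Libraries 7, 8 and 9 stood at the level of the highest C57BL/6J library, and libraries 10 and 11 were below all of them. The log2 fold change was -0.08 ± 0.18 (SE, 95% interval -0.47 to 0.30, edgeR adjusted p = 0.785). It turned to 0.38 (adjusted p = 0.362) without libraries 7, 8 and 9.

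Bid, which caspase 8 cleaves to carry death receptor signals to the mitochondrion, lies at chr6:120891930-120916853 on the minus strand. It was at 81.4, 73.2, 74.6, 67.2 and 70.7 CPM in C57BL/6J and 69.9, 87.4, 80.0, 86.6 and 78.3 CPM in Rag2-/-γc-/- libraries. The groups overlapped, and the difference was -0.13 ± 0.09 (SE, 95% interval -0.32 to 0.06, edgeR adjusted p = 0.348).

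Bax, the pore former among the members (chr7:45461695-45466898, minus strand), was at 147, 92.0, 93.2, 94.5 and 117 CPM in C57BL/6J and 88.3, 75.5, 80.5, 108 and 100 CPM in Rag2-/-γc-/- libraries. Library 1 was the highest and libraries 7, 8 and 9 were below every C57BL/6J library, while libraries 10 and 11 lay inside the C57BL/6J range. The difference was 0.26 ± 0.15 (SE, 95% interval -0.07 to 0.60, edgeR adjusted p = 0.285), and 0.13 (adjusted p = 0.495) without library 1.

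Among the survival genes, Bcl2 is the founding member of the family (chr1:106538178-106714274, minus strand). It was at 50.3, 47.9, 52.1, 45.8 and 55.6 CPM in C57BL/6J and at 40.0, 36.1, 32.3, 70.3 and 60.5 CPM in Rag2-/-γc-/- libraries 7 to 11. The C57BL/6J values lay between those of the Rag2-/-γc-/- subsets, with libraries 7, 8 and 9 below and libraries 10 and 11 above all of them. The group means were thus alike (50.3 ± 3.82 and 47.8 ± 16.6 CPM, SD, n = 5 each; log2 fold change 0.07 ± 0.20 SE, 95% interval -0.36 to 0.51, edgeR adjusted p = 0.833), and the fold change was 0.48 (adjusted p = 0.00542) without libraries 10 and 11 and -0.37 (adjusted p = 0.169) without libraries 7, 8 and 9. Bcl2l11 ran the other way in the Rag2-/-γc-/- libraries: the ratio of its CPM to that of Bcl2 was 1.38, 1.35 and 1.34 in libraries 7, 8 and 9 and 0.217 and 0.516 in libraries 10 and 11, beside 0.335 to 0.648 in C57BL/6J. The subsets were seen in these same libraries, so this is a description with no test.

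**Figure D2:**
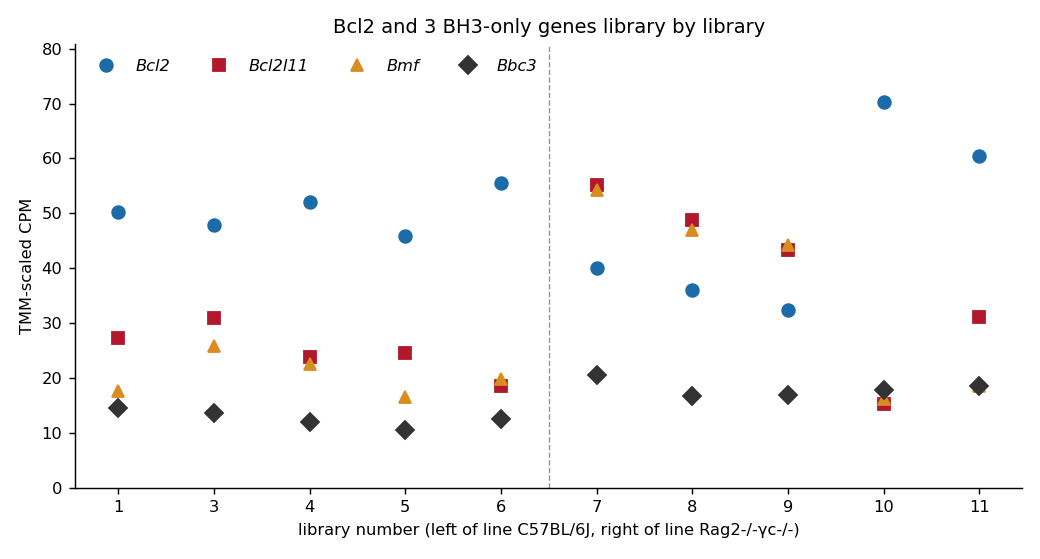
TMM-scaled CPM of Bcl2 and the BH3-only genes Bcl2l11, Bmf and Bbc3 in each library (1 point per gene and library; C57BL/6J left of the dashed line, Rag2-/-γc-/- right). In libraries 7, 8 and 9 Bcl2l11 and Bmf lie above Bcl2, and in libraries 10 and 11 Bcl2, at 70.3 and 60.5 CPM, lies above both.

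Bcl2l1 encodes BCL-XL in its long form (chr2:152780668-152831728, minus strand). It was at 44.9, 36.4, 33.4, 24.1 and 32.1 CPM in C57BL/6J and 62.0, 43.2, 43.2, 44.5 and 51.2 CPM in Rag2-/-γc-/- libraries. C57BL/6J library 1 was the one that reached into the Rag2-/-γc-/- range, and libraries 10 and 11 lay with libraries 7, 8 and 9. The difference of -0.52 ± 0.16 (SE, 95% interval -0.87 to -0.16) was as large as that of Bbc3 but missed the edgeR threshold (adjusted p = 0.0772). Leaving out C57BL/6J library 1 brought it past the threshold (-0.63, edgeR adjusted p = 0.0308), and so did the use of DESeq2 on all 10 libraries (adjusted p = 0.027). The table does not separate the long from the short splice form of Bcl2l1, which act in opposite directions.

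Mcl1, a short-lived survival protein on which many myeloid cells depend (chr3:95658721-95663176, plus strand), was at 470, 604, 599, 509 and 491 CPM in C57BL/6J and 776, 656, 612, 424 and 544 CPM in Rag2-/-γc-/- libraries. Libraries 7, 8 and 9 were above all C57BL/6J libraries and library 10 was the lowest. The difference of -0.17 ± 0.15 (SE, 95% interval -0.50 to 0.15, edgeR adjusted p = 0.472) was within the spread of the recipients. It was -0.35 (adjusted p = 0.0452) without libraries 10 and 11 and 0.15 (adjusted p = 0.798) without libraries 7, 8 and 9.

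Mice carry several copies of the A1 gene, and the members include Bcl2a1b (chr9:89199209-89207827, plus strand) and Bcl2a1d (chr9:88723288-88731850, minus strand). The copies Bcl2a1a, Bcl2a1b and Bcl2a1d have coding sequences of 519 bases in GENCODE M21 that differ at 12 positions in all. A read within the coding sequence that covers none of the 12 positions matches all of these copies alike. A read over such a position can still match more than 1 of them. The stretch with most of these positions, bases 1 to 120 of the coding sequence with 7 differences, is printed 5′ to 3′ with the differing bases in capitals.
Bcl2a1a: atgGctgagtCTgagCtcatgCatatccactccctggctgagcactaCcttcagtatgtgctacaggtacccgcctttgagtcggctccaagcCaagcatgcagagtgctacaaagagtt
Bcl2a1b: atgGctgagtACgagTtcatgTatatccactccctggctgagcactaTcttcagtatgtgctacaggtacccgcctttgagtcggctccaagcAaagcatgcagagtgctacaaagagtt
Bcl2a1d: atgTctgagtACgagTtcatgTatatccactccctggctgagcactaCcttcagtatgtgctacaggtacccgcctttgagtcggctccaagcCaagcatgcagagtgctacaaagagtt
Identity over the coding sequence was 97.9% between Bcl2a1a and Bcl2a1b, 98.7% between Bcl2a1a and Bcl2a1d, and 98.8% between Bcl2a1b and Bcl2a1d. Of all windows of 75 bases, the read length, 56.5% in the Bcl2a1b transcript, 44.8% in Bcl2a1a and 32.4% in Bcl2a1d were found in no other copy. Reads from the rest were divided by the authors' estimation, so values of single copies are uncertain.

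Bcl2a1b was at 56.4, 47.8, 49.9, 41.0 and 57.5 CPM in C57BL/6J and 81.5, 58.9, 61.2, 57.7 and 53.4 CPM in Rag2-/-γc-/- libraries. Library 11 was the one that lay inside the C57BL/6J range, and library 7 stood above the rest. The difference was -0.31 ± 0.13 (SE, 95% interval -0.60 to -0.02, edgeR adjusted p = 0.169), and -0.41 (adjusted p = 0.044) without libraries 10 and 11. Bcl2a1d was at 63.1, 46.7, 44.5, 46.4 and 57.6 CPM in C57BL/6J and at 61.4, 46.9, 50.7, 52.8 and 48.3 CPM in Rag2-/-γc-/- libraries, with overlapping groups and a difference of -0.01 ± 0.12 (SE, 95% interval -0.27 to 0.25, adjusted p = 0.964), which turned to 0.0361 (adjusted p = 0.96) without libraries 7, 8 and 9.

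Bcl2a1a, which is not among the members, leaned the other way from Bcl2a1b. It was at 35.0 to 47.4 CPM in C57BL/6J and 28.1 to 35.4 CPM in Rag2-/-γc-/- libraries (0.33 ± 0.11 SE, edgeR adjusted p = 0.0834, DESeq2 adjusted p = 0.033). The sum over the 4 copies, Bcl2a1c included, was 142 ± 18.7 CPM in C57BL/6J and 147 ± 18.7 in Rag2-/-γc-/- libraries (SD, n = 5 each), and a fit with the copies summed to 1 row gave -0.05 (edgeR adjusted p = 0.818), and 0.0396 (adjusted p = 0.948) without libraries 7, 8 and 9. Within the sum, Bcl2a1a took 25.3 to 29.7% in C57BL/6J and 19.7 to 23.1% in Rag2-/-γc-/- libraries, and Bcl2a1b took 32.7 to 38.3% and 40.1 to 45.4%, so neither share overlapped between groups. Bcl2a1d took 34.1 to 39.2% and 34.2 to 37.0%. The shares were computed after the copies' values had been seen and are given without a test.

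**Figure D3:**
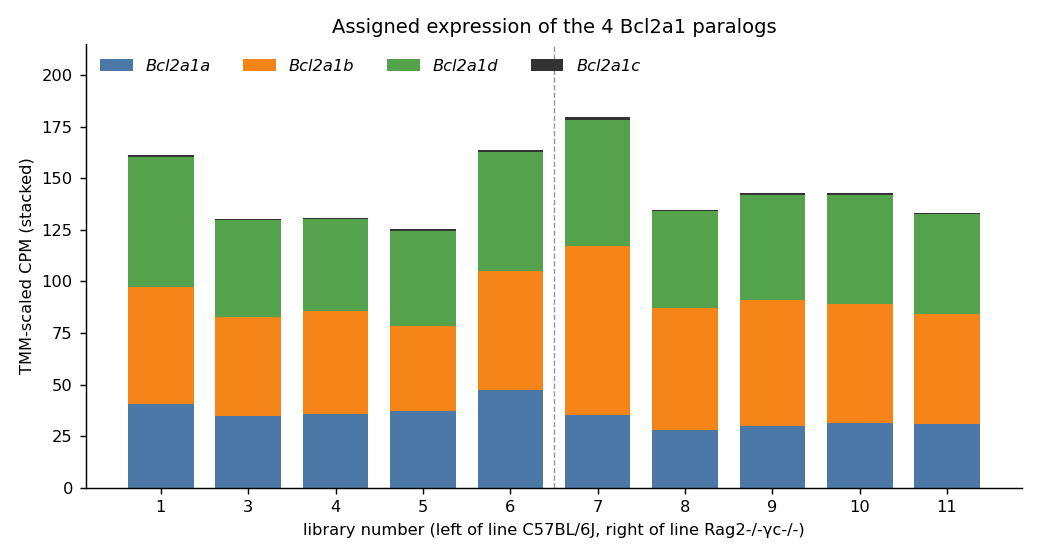
TMM-scaled CPM of the 4 Bcl2a1 copies stacked in 1 bar per library, C57BL/6J left of the dashed line and Rag2-/-γc-/- right. The Bcl2a1b section takes 32.7 to 38.3% in C57BL/6J and 40.1 to 45.4% of the bar in Rag2-/-γc-/- libraries, while the bar heights overlap (125 to 164 against 133 to 179 CPM).

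Levels of different genes were compared as CPM per kilobase of exon (GENCODE M21, all exons of a gene merged). With each gene taken singly, Mcl1 was the most abundant member at a mean of 166 (124 to 227 over the 10 libraries). It lay above every value of the next, Bcl2a1b, at 69.2 (50.1 to 99.7). The Bcl2a1 copies, whose single values are uncertain, were not summed on this scale, so Mcl1 was not ranked against A1 as a whole. Bcl2a1a, outside the members, was at 42.9 (34.3 to 57.8). Bax at 63.2 (47.9 to 93.4), Bcl2a1d at 60.0 (51.5 to 73.1) and Pmaip1 at 50.9 (37.5 to 62.0) followed, and the ranges of neighbours in this order from Bcl2a1b to Pmaip1 overlapped. Bid at 21.7 (18.9 to 24.6) overlapped neither neighbour. The lowest were Bcl2l1 at 9.05 (5.27 to 13.5), Bbc3 at 7.25 (4.95 to 9.64), Bcl2 at 5.36 (3.53 to 7.67) and Bcl2l11 at 3.97 (1.90 to 6.87), again with overlapping neighbours. Genes with long untranslated exons that few transcripts carry, such as Bcl2 (9157 bases of exon), can be understated on this scale.

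**Figure D4:**
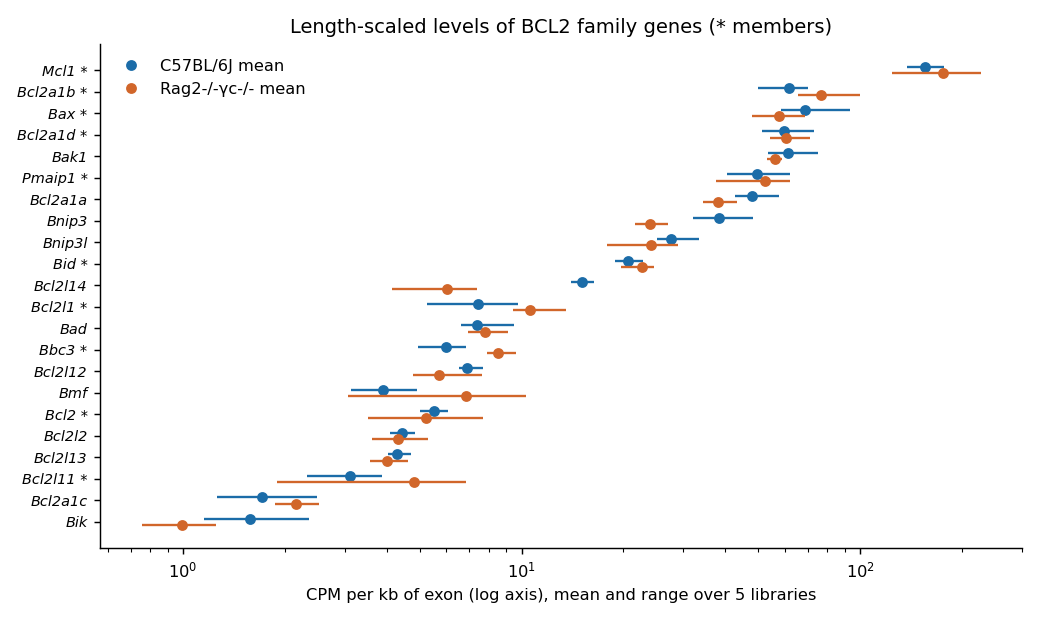
Level of the BCL2 family genes as CPM per kilobase of exon on a log axis, with the mean (point) and the range (line) over the 5 libraries of each group, members marked by a star. Mcl1 lies above every other single family gene (124 to 227), and Bcl2 and Bcl2l11 are among the lower members. The Bcl2a1 copies are drawn singly and not summed.

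Of the 16 other family genes listed, 12 were tested, and 2 rose in C57BL/6J while 0 fell. At an unadjusted p under 0.05 the count was 5 of 12, beside 33 of 86 tested genes of the pathway lists below. DESeq2 called 4 higher and 0 lower, and the median log2 fold change was 0.17. Bcl2l14, known as BCL-G, was at 59.8, 65.9, 57.5, 67.2 and 59.1 CPM in C57BL/6J and 30.3, 27.5, 25.2, 17.0 and 23.6 CPM in Rag2-/-γc-/- libraries. The groups lay far apart, and Bcl2l14 was 2.5-fold higher in C57BL/6J (1.32 ± 0.14 SE, 95% interval 1.02 to 1.63, edgeR adjusted p = 0.000309). The call held without libraries 10 and 11 (1.16, adjusted p = 0.000115) and without libraries 7, 8 and 9 (1.61, adjusted p = 0.00243). Bnip3, a mitochondrial protein with a BH3-like stretch that is known for its response to hypoxia, was at 91.0, 80.7, 109, 81.0 and 72.9 CPM against 49.1, 61.1, 56.9, 52.9 and 50.8 CPM. All C57BL/6J values were above all Rag2-/-γc-/- values (0.68 ± 0.11 SE, edgeR adjusted p = 0.00481, and 0.058 without libraries 7, 8 and 9).

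Bmf, a BH3-only gene, had the pattern of Bcl2l11. It was at 17.7, 25.9, 22.6, 16.5 and 19.8 CPM in C57BL/6J, at 54.2, 46.9 and 44.2 CPM in libraries 7, 8 and 9, and at 16.1 and 18.6 CPM in libraries 10 and 11. The difference was -0.81 ± 0.32 (SE, edgeR adjusted p = 0.139). Without library 10 it was -0.998 (adjusted p = 0.029), without libraries 10 and 11 it was -1.24 (adjusted p = 0.000408), and without libraries 7, 8 and 9 it was 0.24 (adjusted p = 0.69). Bak1, the other pore former that was tested, was at 147 ± 20.6 and 135 ± 6.93 CPM (SD, n = 5 each; 0.13, adjusted p = 0.416). Bcl2l2, Bcl2a1c, Bad, Bik, Bnip3l, Bcl2l12 and Bcl2l13 did not pass the test either, with adjusted p-values of 0.104 (Bik, 0.67) to 0.854 (Bcl2l2, 0.04). Without libraries 10 and 11, Bcl2l12 (0.52, adjusted p = 0.00303) and Bik (0.81, adjusted p = 0.0404) were called higher in C57BL/6J, and the sign of Bcl2l2 and Bnip3l turned (-0.0439 and -0.0015). Without libraries 7, 8 and 9 the sign of Bad (0.0148), Bcl2l12 (-0.0284) and Bcl2l13 (-0.0455) turned. The differences in marker sums given with Bbc3 stand beside Bcl2l14 and Bnip3 too, and their part in these was not tested. Bok, Hrk, Bcl2l10 and Bcl2l15 had too few reads to be tested.

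**Figure D5:**
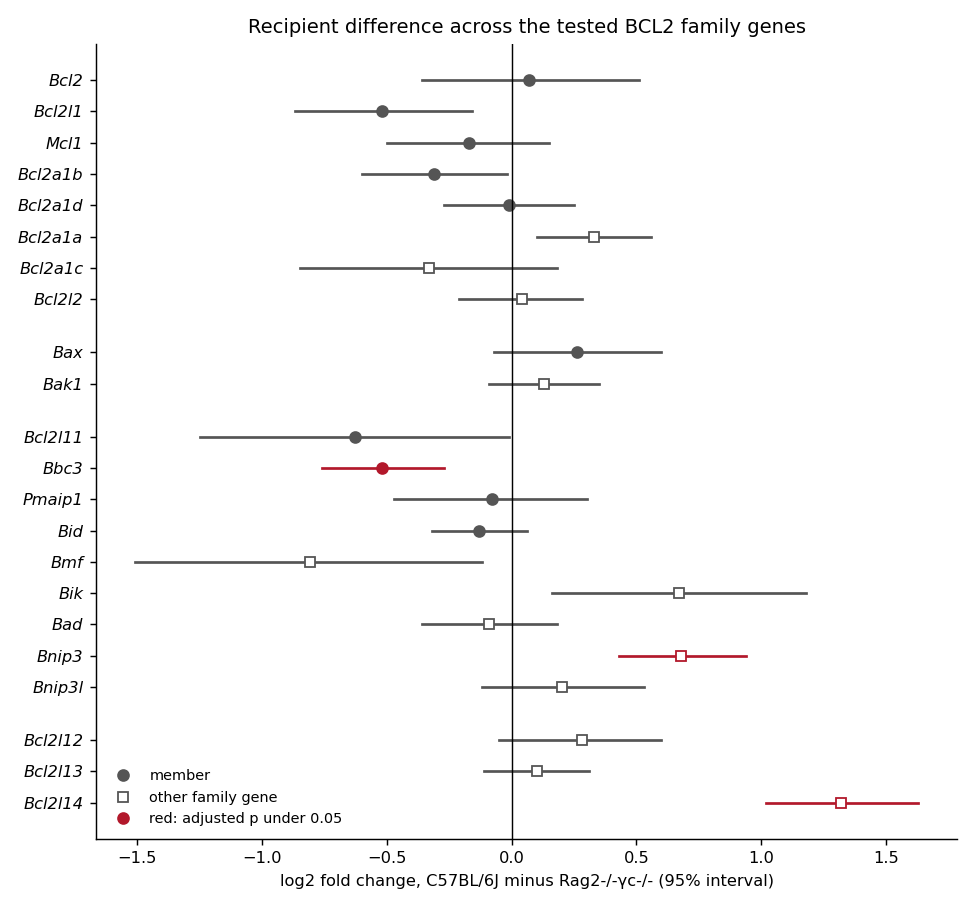
Log2 fold change (C57BL/6J minus Rag2-/-γc-/-) with its 95% interval for the 10 members (circles) and the 12 other tested family genes (squares), red where the edgeR adjusted p was under 0.05. The red genes are Bbc3, at -0.52, and Bnip3 and Bcl2l14, at 0.68 and 1.32.

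The genes that act on the family or follow it were taken from 6 lists of 91 genes, of which 86 were tested, 5 rose and 3 fell in C57BL/6J, with a median of -0.01. Of these 86 genes, 33 were at an unadjusted p under 0.05, and the counts at that cut in single lists stand beside this share. In the list of the apoptosome and caspases 2 of 15 rose and 0 fell (6 at an unadjusted p under 0.05, and 1 lower in DESeq2), which left most effectors without a call. Cycs, the cytochrome c that BAX and BAK release, was at 79.0 to 109 CPM in C57BL/6J and 40.2 to 77.0 CPM in Rag2-/-γc-/- libraries, with the lowest 3 values in libraries 7, 8 and 9 (0.78 ± 0.18 SE, edgeR adjusted p = 0.0252, and 0.40 with an adjusted p of 0.322 without those libraries). The call of Cycs was also lost without C57BL/6J library 6 or without any 1 of libraries 7, 8 and 9 (adjusted p up to 0.0708). The other was Casp6, an effector caspase (0.55, adjusted p = 0.0451, lost without any 1 of 7 libraries, C57BL/6J 1 to 6 and Rag2-/-γc-/- 9 and 11, up to 0.11). Its difference was 0.35 (adjusted p = 0.0237) without libraries 10 and 11 and 0.93 (adjusted p = 0.0111) without libraries 7, 8 and 9.

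Of the genes that feed death receptor signals to Bid, 1 of 7 fell and 0 rose, and single libraries are given by their numbers below. Casp8, which cleaves BID, was at 66.5 to 92.5 CPM in C57BL/6J and 104 to 122 CPM in Rag2-/-γc-/- libraries (-0.44 ± 0.10 SE, edgeR adjusted p = 0.0216, with the call lost when 5, 7 or 8 was left out, up to 0.0551, and 0.173 without libraries 7, 8 and 9). Gzmb, a granule protease of cytotoxic lymphocytes that can also cleave BID, had 150 counts over the C57BL/6J libraries and 0 over the Rag2-/-γc-/- libraries and was not tested. Among the transcription factors of family genes 2 of 17 rose and 1 fell: Mitf (9.15 ± 1.55 against 5.82 ± 0.756 CPM, SD, n = 5 each; 0.65, adjusted p = 0.0239, with the call lost when 3, 4, 6 or 9 was left out, up to 0.0687, and 0.102 without libraries 7, 8 and 9), Myb at under 1 CPM (88 against 12 counts; adjusted p = 0.00706, and 0.0849 without libraries 7, 8 and 9) and Nfkb1 (204 ± 15.1 against 257 ± 11.7 CPM; -0.34, adjusted p = 0.0224, with the call lost when 3, 4, 6, 8 or 9 was left out, up to 0.0685, and 0.179 without libraries 7, 8 and 9). NFKB1 is a subunit of the factor that is known to drive Bcl2a1 and Bcl2l1. Trp53, the regulator of Bbc3, Pmaip1 and Bax, was at 99.4 to 142 CPM in C57BL/6J, 66.3 to 73.3 CPM in libraries 7, 8 and 9 and 126 to 135 CPM in libraries 10 and 11 (0.30, adjusted p = 0.39). It was called without libraries 10 and 11 (0.73, adjusted p = 0.00173), and its sign turned without libraries 7, 8 and 9 (-0.17, adjusted p = 0.732).

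Outside the family, 1 of 18 tested p53 targets rose and 1 fell. Ccng1 was at 214 ± 32.1 and 146 ± 26.3 CPM (SD, n = 5 each; 0.55, edgeR adjusted p = 0.0361, with the call lost when 1, 3, 6, 7, 8 or 9 was left out, up to 0.0957). Without libraries 10 and 11 it was 0.75 (adjusted p = 0.0021), and without libraries 7, 8 and 9 it was 0.30 (adjusted p = 0.483). Trp53inp1 was at 6.68 to 13.3 CPM in C57BL/6J, at 104, 150 and 103 CPM in libraries 7, 8 and 9 and at 6.11 and 6.68 CPM in libraries 10 and 11 (-2.90 ± 0.79 SE, adjusted p = 0.0458). That call rested on libraries 7, 8 and 9, without which it was 0.64 (adjusted p = 0.372), and it was lost without any 1 of 8 libraries, all C57BL/6J libraries and Rag2-/-γc-/- libraries 7, 8 and 9 (up to 0.109). Bbc3, a p53 target too, did not share this split. None of the 17 tested genes for turnover and phosphorylation of family proteins was called by edgeR (7 at an unadjusted p under 0.05; 3 in DESeq2, 1 in limma-voom and 10 in limma-voom with sample quality weights), with the smallest p for the kinase gene Pim2 (0.70, adjusted p = 0.0528, and 0.98 with an adjusted p of 0.00249 without libraries 10 and 11). None of the 12 mitochondrial and endoplasmic reticulum partners was called by edgeR either (4 at an unadjusted p under 0.05; 0 in DESeq2, 0 in limma-voom and 5 with sample quality weights), and Itpr3, a calcium channel that BCL2 binds, came closest (-0.55, adjusted p = 0.125). Itpr3 was called without libraries 10 and 11 (-0.78, adjusted p = 0.01), and it was -0.11 without libraries 7, 8 and 9.

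The count of called members depended on which libraries entered the fit and on the test. Without libraries 10 and 11, 5 of 10 members were called by edgeR (Bcl2 higher, and Bbc3, Bcl2a1b, Bcl2l11 and Mcl1 lower in C57BL/6J), where 36.7% of all tested genes were called. Without libraries 7, 8 and 9, 0 of 10 were called (4 at an unadjusted p under 0.05), where 1.88% of genes were called. Without C57BL/6J library 1, Bbc3 and Bcl2l1 were called (2 of 10, 8.12% of genes), and without Rag2-/-γc-/- library 10, Bbc3 and Bcl2l11 (2 of 10, 16.9% of genes). Without C57BL/6J library 6, 0 of 10 were called, where 4.1% of genes were called, and 3 members were at an unadjusted p under 0.05. All shares of genes in this paragraph are at an adjusted p under 0.05. Shares at an unadjusted p were not computed, so the unadjusted counts of members are not read as a result. Against a 1.5-fold change 0 of 10 were called, with 0 at an unadjusted p under 0.05, where 1.75% of genes were called. DESeq2 on all 10 libraries called Bbc3 and Bcl2l1, 2 of 10, where it called 14% of genes. Limma-voom called Bbc3, as edgeR did, where it called 7.5% of genes, and with sample quality weights it called 7 of 10 (Bax and Bcl2 higher, and Bbc3, Bcl2a1b, Bcl2l1, Bcl2l11 and Bid lower), where it called 46.7%.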

How the data were processed

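The authors deposited a table of RSEM expected counts per Ensembl gene for the 10 libraries, each row carrying a symbol and a position. Build GRCm38 and the tools edgeR, RSEM 1.2.30, STAR 2.5.2a and cutadapt 1.11 are named, per the submitters' processing notes. What each tool did and which annotation was used is not given in the sources used here. RSEM splits a read that matches more than 1 gene among those genes, and strand use is not stated, so overlapping or antisense genes may share reads. Libraries were single reads of 75 bases, per the labels' protocols.

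Expected counts (15.3 to 17.3% of a library's values not whole, any remainder above 0) were rounded. The test was edgeR 4.0.16 (R 4.3.3), quasi-likelihood F test with a group term, TMM and filterByExpr (minimum count 10, minimum total 15). Benjamini-Hochberg adjustment was over 13966 genes, threshold 0.05. The test was also run on simulated data, with each library drawn independently and without subsets in a group. Its behaviour under the split seen in the Rag2-/-γc-/- group was therefore not tested. CPM values are TMM-scaled. Standard errors are of the log2 fold change, and intervals are at 95%. Within groups, the chi-square over its degrees of freedom was 8.637 to 203.17 in 20 pairs of libraries, so all 10 were counted separately. Identical title numbers do not occur across groups, so no block was fitted.

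Named genes are the 10 members, all other family genes listed, up to 4 genes past the threshold in each pathway list (or the 1 with the smallest p), the 3 genes most like each called member, and 5 checks. A gene that this rule names is not reported here. Foxo3, Trp53 and Gzmb were named after their values were seen. The members, the 10 gene lists (107 genes, all matched), the marker lists and the alternatives were chosen with earlier results of these data known. Alternatives were RLE and upper quartile scaling, DESeq2 1.42.0, limma-voom (limma 3.58.1) with and without sample quality weights, 2 other count filters (none, and 1 CPM in 5 libraries), robust dispersion, a test against a 1.5-fold change, the Bcl2a1 copies summed, and libraries left out. Promoter windows are from RefSeq (GRCm38.p6), without those on chromosome 18. Exon lengths and Bcl2a1 sequences are from GENCODE M21.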

Additional observations from a re-analysis of the deposited data

Results flagged for a closer look

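In 80 pairs of a gene and a recipient group, the highest or lowest of the 5 libraries was compared with the rest by Dixon's ratio (critical value 0.71), and 6 pairs held a library that stood apart; chance gives about 1 in 20. Among the members this was Bcl2a1b, with Rag2-/-γc-/- library 7 at 81.5 CPM and the others at 53.4 to 61.2 CPM. C57BL/6J library 1 was the highest for Bad (24.3 CPM, others 17.0 to 18.1), Bcl2l12 (15.2 CPM, others 12.9 to 13.6) and Myb (0.733 CPM, others 0.305 to 0.428) and the lowest for Ptprc (472 CPM, others 667 to 743). C57BL/6J library 5 was the lowest for 2410006H16Rik (14.1 CPM, others 17.5 to 18.3).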

How the results depend on the processing

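No paired analysis was possible because the title numbers of the groups differ (1, 3, 4, 5 and 6 against 7 to 11). Genes called higher over the whole table (464) came to 803 in DESeq2, 3306 in limma-voom with sample quality weights, 126 in the test against 1.5-fold, 2786 without Rag2-/-γc-/- libraries 10 and 11, 148 without libraries 7, 8 and 9, and 275 to 1076 with 1 library left out. Genes called lower (624) came to 1155, 3217, 119, 2518, 127 and 304 to 1323 in the same order. Members called higher (0) came to 2 with quality weights and 1 without libraries 10 and 11, and members called lower (1) to 2, 5, 0, 4, 0 and 0 to 2 in that order. The other family and pathway genes called higher (7) came to 12, 28, 2, 30, 2 and 3 to 13, and those called lower (3) to 8, 22, 0, 25, 1 and 0 to 14.

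Without libraries 7, 8 and 9 the sign turned for Bcl2 (-0.37), Mcl1 (0.15), Bcl2a1d (0.0361), Bcl2l11 (0.11), Pmaip1 (0.38), the Bcl2a1 sum (0.0396), Bad (0.0148), Bmf (0.24), Bcl2l12 (-0.0284), Bcl2l13 (-0.0455), Trp53inp1 (0.64), Trp53 (-0.17) and Runx1 (-0.0645), and without libraries 10 and 11 for Bcl2l2 (-0.0439) and Bnip3l (-0.0015). Upper quartile scaling turned Bcl2a1d (0.0063). Runx1, at 0.23 with all libraries (edgeR adjusted p = 0.381), was called without libraries 10 and 11 (0.47, adjusted p = 0.00832). With 1 library left out, Bcl2 gave -0.0387 to 0.25, Bcl2a1d -0.0909 to 0.0519, Bcl2l2 -0.0201 to 0.12 and the Bcl2a1 sum -0.0998 to 0.0331. Except for Trp53inp1, none of these was called with all libraries. The cause was not tested. Over 888 values of 42 single genes, 739 kept direction and side of the threshold. The adjusted p of Bbc3 was 0.0127 to 0.0502 with 1 library left out, 0.000196 in DESeq2 and 1 against a 1.5-fold change. Counts behind Myb (88 against 12) and Gzmb (150 against 0) are few, and the effect of depth on the calls was not tested.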
